A study of Caenorhabditis briggsae with 12 samples.

Results

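Of the 23169 genes counted in adult hermaphrodites of the nematode Caenorhabditis briggsae, 5 met a strict definition of a peak on day 3 of adulthood: WBGene00029619, WBGene00037411, WBGene00028516, WBGene00027490 and WBGene00038787. A gene was taken if its lowest level in the 3 day 3 libraries was at least 1 CPM (counts per 1000000 counts in the library) and at least 1.5 times its highest level in the 9 other libraries, with a mean under 1000 CPM over all 12. The genes were thus chosen by the same CPM values that show the peak, which are given as a description with no test. The definition set no direction among days 1, 6 and 9, and these comparisons were tested. It did cap the level in each of the 9 other libraries, which left out genes that were high on any of those days. The shares and medians over all tested genes, given beside the tests, carry no such cap and are not a like-for-like background.

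All animals were of the wild-type AF16 strain, kept at 20 °C on E. coli OP50 and untreated, and the groups were day 1, day 3, day 6 and day 9 of adulthood, with 3 RNA-seq libraries of whole animals each. Populations were synchronised by bleaching, and growing larvae were removed by settling and by hand, so each library is a pool of animals. The library totals ranged from 14276540 counts, in day 9 replicate 1, to 33732477 counts, in day 1 replicate 1.

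Caenorhabditis briggsae hermaphrodites fertilise their own oocytes with sperm that they made before adulthood, and they lay most of their self-progeny in the first days of adult life. Egg laying ends when the stored sperm are used up, after which the animals live on without reproducing. Whole-animal RNA at these ages comes from the gut, body wall muscle, epidermis, nerve cells, germ line and any embryos held in the uterus. A difference in level can come from fewer or smaller cells of a type, or from less RNA per cell, and bulk counts cannot tell these apart. The counted genes carry WormBase identifiers only, which matched 0 of the 22727 entries in the gene table used here, so the roles of the 5 genes, their positions and their sequences are not given.

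Day 3 replicate 3 differed from the other libraries of its day in a way that bears on the list. With it left out of the definition, 25 genes met it, of which 5 were the same genes and 20 were added. As follows from how they were found, replicate 3 was the lowest day 3 library in all 20 added genes, and it stood at 0% to 81.9% of the mean of replicates 1 and 2 and at a median of 5.23%. In 17 of them its level was under the highest level outside day 3. The 5 genes of the full list could not show such a drop, since the definition needs every day 3 library to be high. For them replicate 3 stood at 77.2% of the mean of replicates 1 and 2 for WBGene00028516, at 95.3% for WBGene00029619, at 108.4% for WBGene00038787, at 144.6% for WBGene00037411 and at 189.8% for WBGene00027490. At day 9, replicates 2 and 3 correlated across genes at r = 0.994, and replicate 1 with them at 0.834 and 0.812, as a description of these libraries. With replicates 2 and 3 of day 9 left out of the definition 8 genes met it, and with all day 9 libraries left out 9 did, the 5 genes among them both times.

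**Figure D1:**
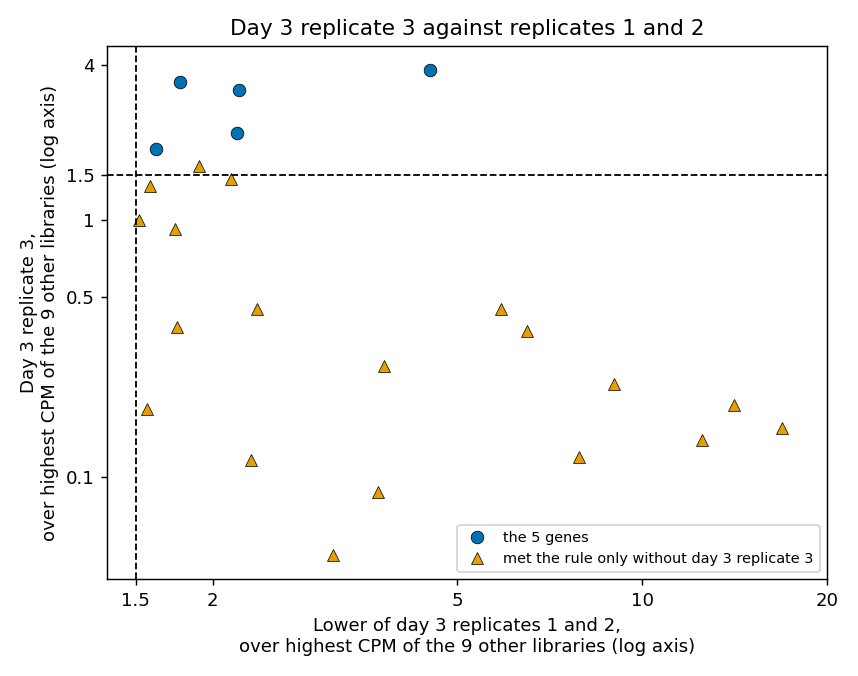
Ratio of day 3 replicate 3 (vertical, log axis) and of the lower of day 3 replicates 1 and 2 (horizontal, log axis) to the highest CPM of the 9 libraries of other days. Circles are the 5 genes and triangles the 20 genes that met the definition only without replicate 3, of which 1 stood at 0 counts in replicate 3 and is left off. Dashed lines mark the ratio of 1.5. The circles lie above the horizontal line, and most triangles lie far under it.

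On plain CPM, fewer genes met the definition for day 3 than for the other days. The same definition applied to the other days gave 1062 genes for day 1, 56 for day 6 and 105 for day 9. For day 3 it gave 10 genes on TMM-normalised CPM and 8 on median-of-ratios CPM, the 5 genes among them both times. The other days were not recounted on these scales. TMM factors were lowest in the day 3 libraries, at 0.866, 0.889 and 0.865, so plain CPM puts day 3 lower than TMM does. Days 1 and 9 are the first and last days sampled, so a gene highest there is not shown to peak. Of the 10972 genes with at least 1 CPM in every day 3 library and a mean under 1000 CPM, 199 were higher in all 3 day 3 libraries than anywhere else. In 59.8% of the 199 the lowest of the day 3 libraries was replicate 3. For 156 of the 199 the highest level elsewhere was in a day 6 library.

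**Figure D2:**
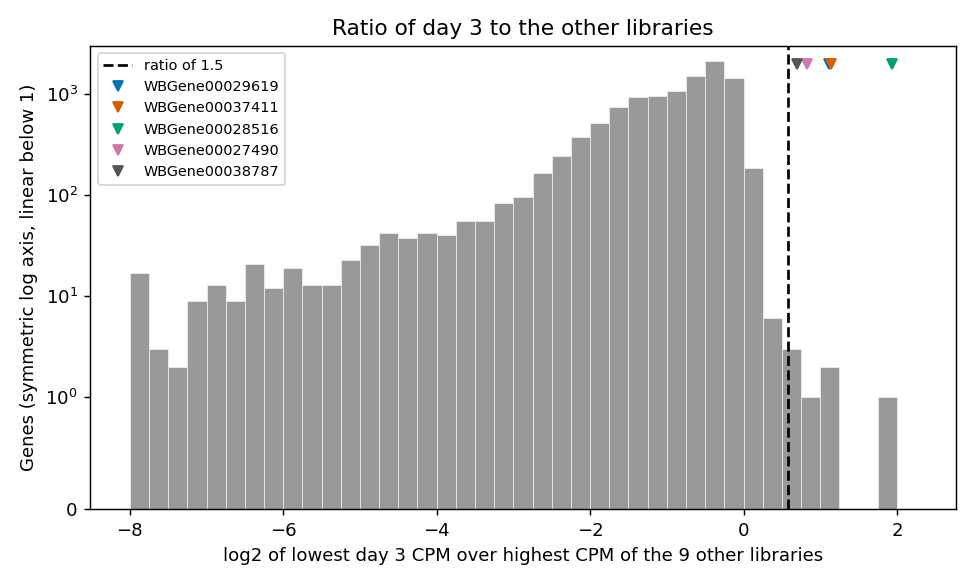
Histogram of the ratio of the lowest day 3 CPM to the highest CPM of the other libraries, on a log2 scale, for the genes that met the CPM limits (vertical axis: number of genes, symmetric log scale). The leftmost bar also holds lower ratios. The dashed line marks 1.5 and the triangles mark the 5 genes, from 1.62 to 3.82.

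WBGene00028516 stood furthest above its level elsewhere. Its lowest day 3 level, 3.48 CPM, was 3.82 times its highest level outside day 3, 0.910 CPM in day 9 replicate 2. WBGene00037411 followed with a ratio of 2.21 and WBGene00029619 with 2.17, and for both the highest other level was in a day 6 library. WBGene00027490, at 1.77, and WBGene00038787, at 1.62, were the genes nearest to the limit inside it. The nearest genes outside it were WBGene00027112, with a lowest day 3 level of 1.02 CPM and a highest other level of 0.705 CPM, and WBGene00038467, with 27.5 and 19.1 CPM. Both had a ratio of 1.44.

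WBGene00029619 was the gene with the most counts behind it, 6979 over all libraries. It stood at 12.5, 10.2 and 9.29 CPM in the day 1 libraries, at 47.5, 44.0 and 43.6 CPM at day 3, at 18.0, 20.1 and 20.0 CPM at day 6 and at 6.79, 8.60 and 9.95 CPM at day 9. The day 3 libraries lay close together, and those of day 6 lay between them and the libraries of days 1 and 9, which overlapped. With n = 3 per day, the mean ± SD was 10.7 ± 1.67 CPM on day 1, 45.1 ± 2.15 on day 3, 19.4 ± 1.20 on day 6 and 8.45 ± 1.58 on day 9. The day 3 mean was 4.21 times that of day 1, 2.33 times that of day 6 and 5.33 times that of day 9.

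WBGene00037411 stood at 1.54, 1.38 and 1.58 CPM at day 1, at 4.22, 4.27 and 6.14 CPM at day 3, at 1.91, 1.54 and 1.24 CPM at day 6 and at 0.350, 1.00 and 1.47 CPM at day 9. Replicate 3 was the highest of day 3, and the libraries of days 1, 6 and 9 overlapped with one another. The 95% Poisson interval of day 3 replicate 3, from 187 counts, was 5.29 to 7.09 CPM, above those of replicates 1 and 2, which ended at 5.07 and 5.13 CPM. Such intervals cover counting error only. The day 3 mean of 4.88 ± 1.09 CPM (SD, n = 3) was 3.25 times the day 1 mean, 3.12 times the day 6 mean and 5.18 times the day 9 mean.

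WBGene00028516 had the largest ratio of the day 3 mean to the day 1 mean among the 5 genes. It had 8, 3 and 16 counts at day 1, 111, 130 and 106 at day 3, 13, 15 and 21 at day 6 and 3, 29 and 10 at day 9. On the CPM scale the day 3 libraries stood at 4.11, 4.91 and 3.48, and the others between 0.0982 and 0.910. Its mean ± SD (n = 3 per day) was 0.291 ± 0.225 CPM on day 1, 4.17 ± 0.72 on day 3, 0.608 ± 0.070 on day 6 and 0.503 ± 0.364 on day 9. The day 3 mean was 14.3 times that of day 1, 6.85 times that of day 6 and 8.29 times that of day 9. The day 1 mean rests on 27 counts in all, so the ratio to it is the least precise of the 3.

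WBGene00027490 was the only one of the 5 with no counts on a sampled day. It had 17, 14 and 19 counts at day 1, 32, 30 and 67 at day 3, 9, 5 and 12 at day 6, and 0 in each day 9 library. The day 3 levels were 1.18, 1.13 and 2.20 CPM, and the level of replicate 3, with a 95% Poisson interval of 1.70 to 2.79 CPM, lay above the intervals of the other day 3 libraries, which ended at 1.67 and 1.62 CPM. The intervals of day 3 replicates 1 and 2 began at 0.810 and 0.765 CPM, and that of day 1 replicate 3 reached 0.999 CPM, so single libraries of these days are not all parted by counting error. Over 3 libraries per day, the mean ± SD was 0.534 ± 0.094 CPM on day 1, 1.51 ± 0.60 on day 3 and 0.316 ± 0.083 on day 6, and the day 3 mean was 2.82 times that of day 1 and 4.76 times that of day 6. Taking 3 counts over the day 9 libraries as the limit that 0 counts allow, the day 9 mean was under 0.0417 CPM, at least 36.1-fold lower than the day 3 mean. This bound, like those given below against days 1 and 6, allows for counting error at day 9 only and takes the other mean as measured. The day 3 mean was also chosen for being high.

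WBGene00038787 had the flattest profile outside day 3. It had 15, 11 and 20 counts at day 1, 32, 36 and 42 at day 3, 18, 13 and 7 at day 6 and 7, 16 and 9 at day 9. The day 3 libraries stood at 1.18, 1.36 and 1.38 CPM. The mean ± SD of 3 libraries was 0.493 ± 0.162 CPM on day 1, 1.31 ± 0.11 on day 3, 0.505 ± 0.267 on day 6 and 0.447 ± 0.085 on day 9. The day 3 mean was 2.65, 2.59 and 2.93 times the means of days 1, 6 and 9. The Poisson intervals of the day 3 libraries began at 0.810, 0.953 and 0.994 CPM, and that of day 6 replicate 1 reached 1.16 CPM, so the same holds here.

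**Figure D3:**
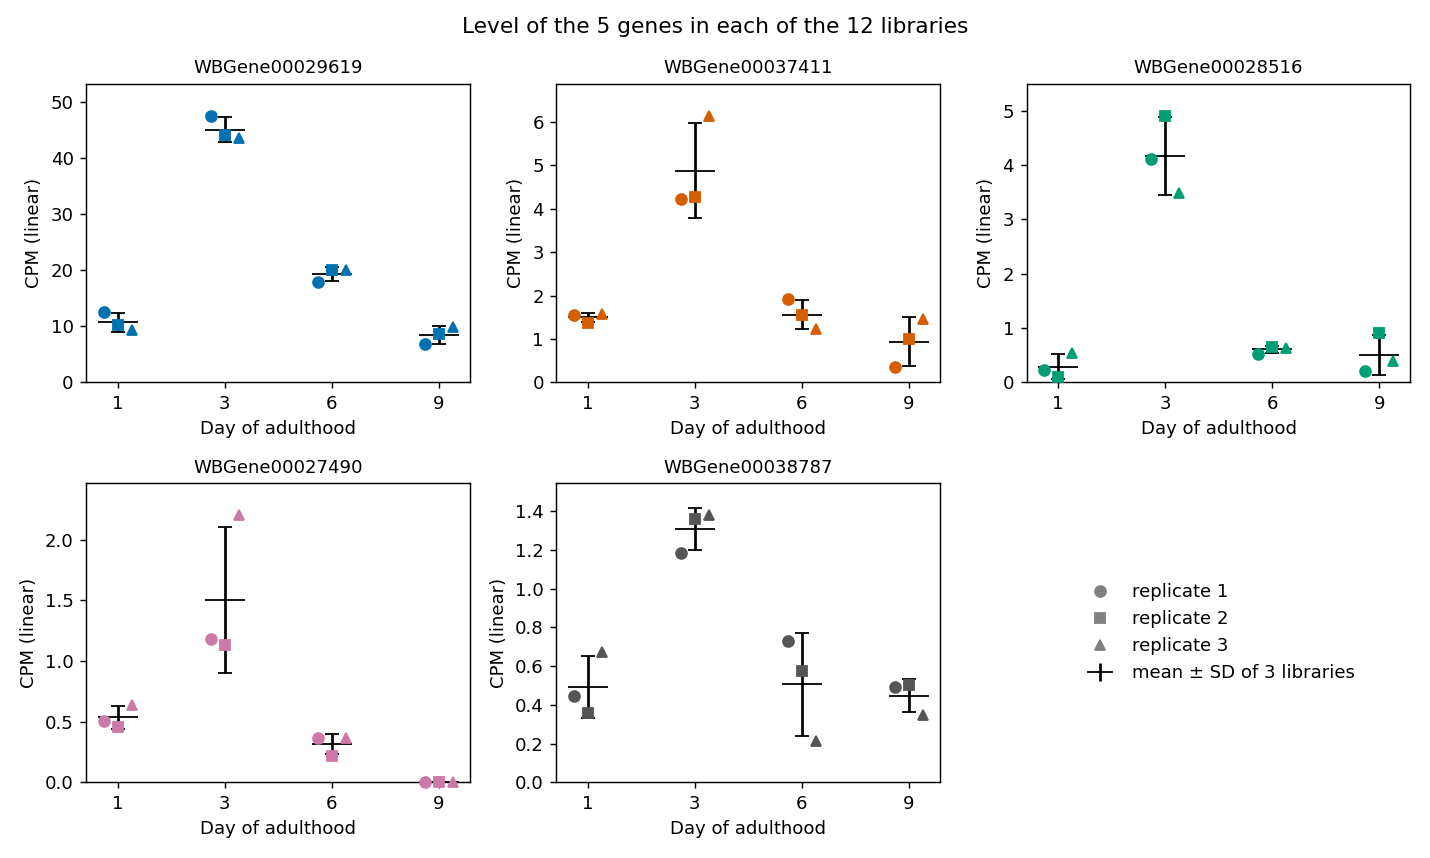
CPM (linear axes from 0, a scale per gene) of the 5 genes in each library by day of adulthood. Symbols mark replicates 1 to 3, and black marks the mean ± SD of 3 libraries. In each panel the 3 day 3 libraries lie above all others, and WBGene00027490 is at 0 in the day 9 libraries.

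The spread between the day 3 libraries differed among the 5 genes. As a coefficient of variation it was 4.77% for WBGene00029619, 8.18% for WBGene00038787, 17.2% for WBGene00028516, 22.4% for WBGene00037411 and 39.9% for WBGene00027490. Genes with a day 3 mean within 1.5 times that of each gene, which have a like counting depth, had medians of 4.74%, 20.8%, 12.8%, 12.1% and 19.8% in the same order. The 5 genes were chosen on their lowest day 3 library and the genes beside them were not, so these values are a description only. Replicate 3 was the highest day 3 library in WBGene00038787, WBGene00037411 and WBGene00027490 and the lowest in WBGene00029619 and WBGene00028516.

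The levels away from the peak differed among the genes too. Relative to the day 3 mean, the day 1 means ranged from 6.99% for WBGene00028516 to 37.7% for WBGene00038787. The day 6 means ranged from 14.6% for WBGene00028516 to 42.9% for WBGene00029619. The day 9 means ranged from 0% for WBGene00027490 to 34.2% for WBGene00038787. The day with the second highest mean was day 6 in 4 of the 5 genes and day 1 in WBGene00027490. In WBGene00037411 and WBGene00038787 the means of days 6 and 1 differed by less than the SD within either day. Among the 1539 tested genes whose highest mean was at day 3, the second highest was at day 6 in 1128, or 73.3%.

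**Figure D4:**
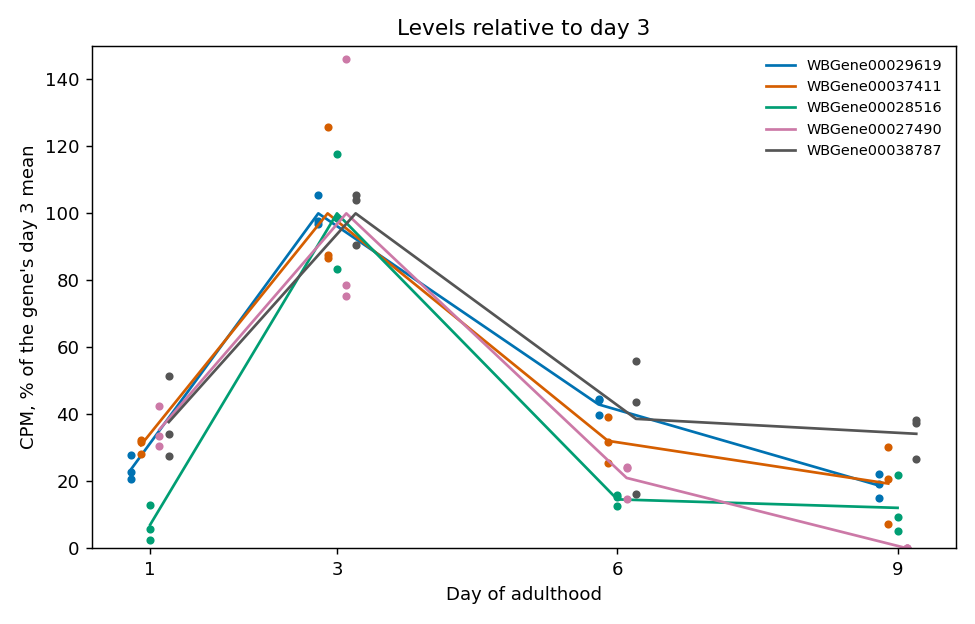
CPM as a percentage of each gene's day 3 mean (vertical, linear) by day of adulthood. Points are libraries, lines join the means of 3 libraries, and genes are set slightly apart along the horizontal axis. The day 6 means lie between 14.6% and 42.9%, and WBGene00027490 ends at 0% at day 9.

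Day 6 was compared with day 1 to ask whether the genes came back to the level they had before the peak. Fold changes were fitted by edgeR's quasi-likelihood test to all 12 libraries and all tested genes, with TMM scaling, which evens out the share of counts taken by a few genes, and Benjamini-Hochberg adjustment ran over all tested genes. WBGene00029619 did not return to it by day 6: it averaged 19.4 ± 1.20 CPM at day 6 and 10.7 ± 1.67 CPM at day 1 (SD of 3 libraries), a log2 fold change of 0.98 (SE 0.15, edgeR adjusted p = 0.00130), higher in 3 of 3 libraries. It was the 1 gene of the 5 called higher, where 29.4% of the 15788 tested genes were called higher, and 0 were called lower, where 27.1% of all tested genes were. Over all genes this was 4649 higher and 4271 lower calls, but 3020 and 4697 with median-of-ratios factors. Among the 5 genes, 1 was higher and 0 were lower at an unadjusted p under 0.05, a limit at which all genes were not counted. DESeq2 also called 1 of the 5 higher and 0 lower, beside 3420 higher and 5243 lower of 18507 genes. The median log2 fold change of the 5 was 0.17, against -0.04 for all tested genes.

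The other 4 genes did not pass the test between days 6 and 1. WBGene00028516 had 13, 15 and 21 counts at day 6 and 8, 3 and 16 at day 1, a log2 fold change of 1.18 (SE 0.57, edgeR adjusted p = 0.0951). It was called without day 1 replicate 3, at 1.95 with an edgeR adjusted p of 0.0301, and without day 9 replicate 1, at 1.20 with 0.0398, and over all alternatives its adjusted p ranged from 0.0301 to 0.252. WBGene00027490 was at -0.60 (SE 0.40, edgeR adjusted p = 0.220), and its day 6 libraries lay below those of day 1. WBGene00037411 was at 0.17 ± 0.38 (SE) and WBGene00038787 at 0.12 ± 0.41 (SE), with edgeR adjusted p of 0.703 and 0.813, and the libraries of the 2 days overlapped in both. On the plain CPM scale, 1 of the 5 genes had every day 6 library above every day 1 library, and 1 had every one below. The same held for 34.2% and 44.1% of the tested genes.

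Between days 6 and 9, 2 of the 5 genes fell. WBGene00029619 averaged 8.45 ± 1.58 CPM at day 9 and 19.4 ± 1.20 CPM at day 6 (SD of 3 libraries), a log2 fold change of -1.37 (SE 0.15, edgeR adjusted p = 0.000787), and each day 9 library lay below each day 6 library. WBGene00027490 had 0 counts in the 3 day 9 libraries and 9, 5 and 12 in the 3 day 6 libraries, which makes it at least 7.59-fold lower at day 9 against a limit of 3 counts over the day 9 libraries, with an edgeR adjusted p of 0.00334. The 2 calls stand beside a share of 15.5% called lower among all tested genes, and 0 of the 5 were called higher, where 29.3% of all tested genes were. Over all genes there were 4618 higher and 2443 lower calls, but 5585 and 1401 with scaling by library totals only. At an unadjusted p under 0.05 the counts among the 5 genes were 3 lower and 0 higher, with no count over all genes at that limit. DESeq2 called 3 of the 5 lower and 0 higher, beside 2312 lower and 5054 higher of 18100 genes.

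In the other genes the later libraries overlapped with those of day 6. WBGene00037411 was at a log2 fold change of -0.87 (SE 0.39, edgeR adjusted p = 0.0905). Its low level at day 9 came mainly from replicate 1, at 0.350 CPM, against 1.00 and 1.47 CPM in replicates 2 and 3. Replicate 1 had 5 counts in the smallest library, and the other 2 had 32 and 38 counts. Without day 9 replicate 3 it was called, at -1.32 with an edgeR adjusted p of 0.0436, and by DESeq2, at -0.89 with an adjusted p of 0.0420, and its value was -0.55 without day 9 replicate 1. With replicate 1 alone at day 9 its value was -2.23. Over the other alternatives its adjusted p ranged from 0.0420 to 0.283. WBGene00028516, at -0.38 ± 0.55 (SE), and WBGene00038787, at -0.32 ± 0.43 (SE), had edgeR adjusted p of 0.577 and 0.551. The median log2 fold change of the 5 genes was -0.87, also with WBGene00027490 at its bound, against 0.17 for all tested genes. Every day 9 library lay below every day 6 library in 2 of the 5 genes and in 9.83% of the tested genes, and every one above in 0 of the 5 and in 19.7% of the tested genes.

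Both calls depended on which libraries entered the fit. In a fit of days 6 and 9 alone, which called 25 genes higher and 41 lower in all, WBGene00029619 had a log2 fold change of -1.31 with an edgeR adjusted p of 0.0732, and WBGene00027490 had too few counts to be tested. With replicates 2 and 3 of day 9 left out, so that its single library is taken to vary as other days do, the edgeR adjusted p of WBGene00027490 was 0.0528. Over all alternatives the adjusted p ranged from 1.18e-15 to 0.0732 for WBGene00029619 and from 0.000166 to 0.0528 for WBGene00027490.

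Over the whole span, 1 of the 5 genes was lower at day 9 than at day 1. WBGene00027490 had 0 counts in the day 9 libraries and 17, 14 and 19 in those of day 1, at least 12.8-fold lower against the same limit, with an edgeR adjusted p of 0.00208. Among all tested genes 4.7% were called lower, and 6.89% higher, where 0 of the 5 were. Over all genes there were 1088 higher and 742 lower calls, but 822 and 1161 with median-of-ratios factors. At an unadjusted p under 0.05 the counts among the 5 genes were 2 lower and 0 higher, with no count over all genes at that limit. DESeq2 also called 2 of the 5 lower and 0 higher, beside 1851 lower and 1277 higher of 17694 genes. Every day 9 library lay below every day 1 library in WBGene00027490 alone of the 5 and in 16.8% of the tested genes. Every one lay above in 0 of the 5 and in 18.4%.

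WBGene00029619 averaged 8.45 ± 1.58 CPM at day 9 and 10.7 ± 1.67 CPM at day 1 (SD of 3 libraries), a log2 fold change of -0.39 (SE 0.15, edgeR adjusted p = 0.119). It was called lower without day 9 replicate 3, at -0.60 with an edgeR adjusted p of 0.0356, with median-of-ratios factors, at -0.51 with 0.0455, and by DESeq2, at -0.51 with an adjusted p of 0.0169. With replicate 1 alone at day 9 the log2 fold change was -0.71. Over the other alternatives the adjusted p ranged from 0.0169 to 0.407. WBGene00037411 was at -0.69 ± 0.39, WBGene00028516 at 0.80 ± 0.57 and WBGene00038787 at -0.20 ± 0.42 (all SE), with edgeR adjusted p of 0.249, 0.366 and 0.778. The value of WBGene00037411 was -1.22 without day 9 replicate 3 and -0.38 without replicate 1. With replicates 2 and 3 of day 9 both left out it was -2.14, which rests on 5 counts in 1 day 9 library. Over the other alternatives the adjusted p of WBGene00037411 ranged from 0.0649 to 0.455. The value of WBGene00028516 ranged from 0.06 to 1.55 when single libraries were left out, without day 9 replicate 2 and day 1 replicate 3. The median of the 5 genes was -0.39, also with WBGene00027490 at its bound, against 0.13 for all tested genes. The 3 comparisons share libraries with one another, so their results are not independent.

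**Figure D5:**
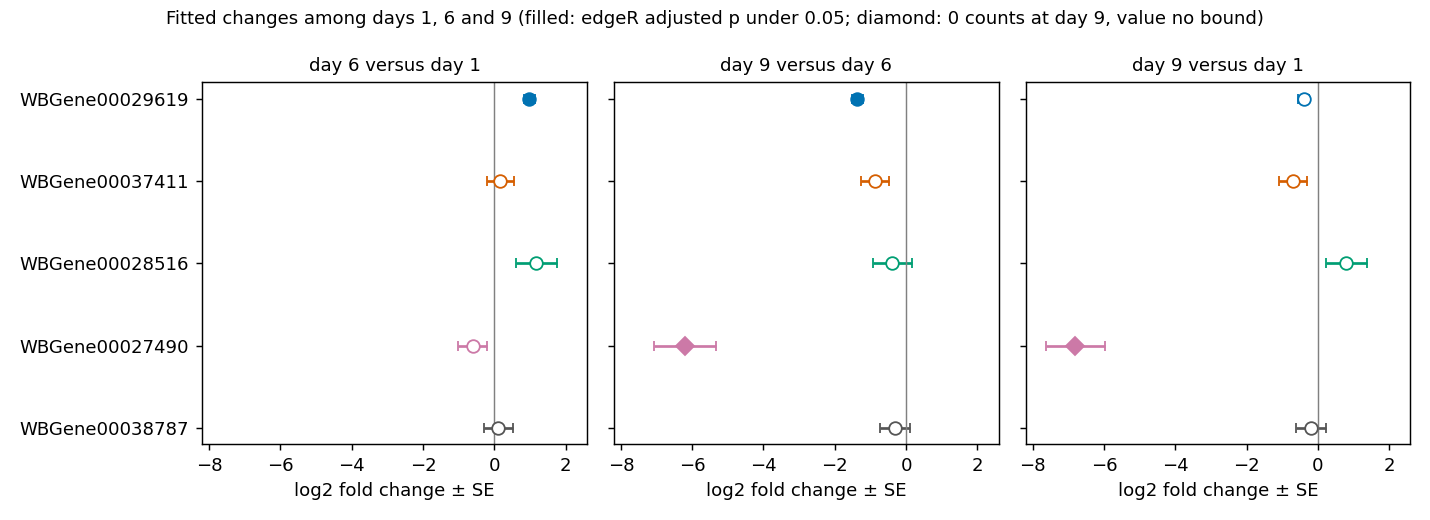
Fitted log2 fold changes ± SE (horizontal) of the 5 genes in the comparisons of day 6 with day 1, day 9 with day 6 and day 9 with day 1. Filled symbols passed an edgeR adjusted p of 0.05, and diamonds mark WBGene00027490 against 0 counts at day 9, whose fitted values are no bounds. WBGene00029619 lies at 0.98, -1.37 and -0.39 from left to right.

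The order of days by level was thus known in part, and is given here by the main fit. For WBGene00029619 day 6 lay above days 1 and 9, and days 9 and 1 were not told apart. Its fall from day 6 to day 9 did not pass in the fit of these days alone, and some alternatives called day 9 below day 1. For WBGene00027490 day 9 lay below days 1 and 6, and days 6 and 1 were not told apart. The fit of days 6 and 9 alone could not test WBGene00027490. For WBGene00037411, WBGene00028516 and WBGene00038787 none of the 3 pairs of days passed the test, which does not show that their levels were equal. These genes had 226 to 753 counts each over the 12 libraries.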

How the data were processed

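The authors deposited raw counts per gene with 1 column per library, and each column was matched to its sample by the name in the labels. The submitters' processing notes name STAR, featureCounts and MultiQC. The sources used here do not state their versions, the genome build, the annotation or the strand setting, so counts of overlapping or near-identical genes are uncertain. CPM values were computed from the deposited counts and library totals. edgeR 4.0.16 in R 4.3.3 kept 15788 genes by filterByExpr, the 5 described genes among them, also with the day 3 libraries left out of the filter. The 12 libraries were scaled with TMM factors and fitted jointly by day, which leaves 8 residual degrees of freedom. Calls used a Benjamini-Hochberg adjusted p under 0.05, and standard errors were derived from each log2 fold change and its F statistic. No label states separate cultures for the replicates, so p-values reflect only how much these samples vary, which could be technical. Within each day, pairs of libraries differed by more than sampling noise (chi-square divided by its degrees of freedom, 4.23 to 288.04), so none was treated as a second reading of the same library. This measure covers sampling noise only and cannot show whether the libraries came from separate cultures. The test was checked on simulated counts. Alternatives were other scalings, no filter, DESeq2 1.42.0, fits of fewer libraries, a replicate block and other limits in the definition. All 5 genes were named because there were no more than 12, together with the 2 genes nearest outside the limit. The genes, definition and comparisons were chosen with earlier results of these data known. Lists of marker genes, such as yolk, oocyte, sperm and muscle genes, could not be examined without gene names, nor could the tissue be checked against its markers.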

Additional observations from a re-analysis of the deposited data

How the results depend on the processing

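The number of genes that met the definition moved with its limits. Against 5, it was 10 with a ratio lower than 1.5, 3 with a ratio of 2, 1 with a lowest level of 5 CPM, 10 with TMM-normalised CPM and 8 with median-of-ratios CPM. Leaving out single libraries gave 5 to 25 (25 without day 3 replicate 3, otherwise at most 6). Leaving out day 9 replicates 2 and 3, or all of day 9, both tried after seeing the data, gave 8 and 9. The 5 genes were found in each of these settings except the ratio of 2 and the level of 5 CPM. Without single libraries, between days 6 and 1 the test called 1 to 2 of the 5 genes higher, between days 9 and 6 it called 2 to 3 lower, and between days 9 and 1 it called 1 to 2 lower. Over all tested genes these calls ranged from 1798 to 6060, from 998 to 5478 and from 289 to 3207, in the same order. A fit of only days 6 and 9 could test 4 of the 5 genes and called 0 lower, where 41 of 13956 tested genes were called lower. Between days 9 and 1, 2 of the 5 genes were lower with median-of-ratios factors, where 1161 of 15788 tested genes were. DESeq2 called 2 of the 5 lower, where 1851 of 17694 genes were. In the main fit 742 of 15788 were called lower. The cause of these changes was not tested.

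Some uncalled log2 fold changes turned sign. For WBGene00038787, leaving out single libraries gave -0.33 to 0.49 between days 6 and 1 (negative without day 6 replicate 1, at -0.33, day 6 replicate 2, at -0.052, and day 1 replicate 2, at -0.044), -0.70 to 0.020 between days 9 and 6 and -0.37 to 0.086 between days 9 and 1. With no low-count filter it was -0.0055 between days 6 and 1, and without all day 9 libraries -0.0076. WBGene00037411 gave -0.062 to 0.29 between days 6 and 1 when single libraries were left out, and WBGene00028516 gave -0.50 between days 9 and 1 with replicate 1 alone at day 9.

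Over all tested genes and settings, 25 to 6902 were called higher and 41 to 5478 lower between days 9 and 6, 246 to 4638 and 155 to 5591 between days 9 and 1, and 1798 to 6060 and 3159 to 6394 between days 6 and 1. Between days 9 and 6 the median over all genes was 0.34 with library totals only and 0.17 with TMM. Whether the replicate numbers pair the samples is not stated. Deviations of same-numbered libraries correlated at -0.27 to 0.40, and 3 or 4 of 6 libraries per comparison correlated best with their own number. With so few libraries per day this check cannot decide the question. The replicate block changed no call among the 5 genes (1 higher between days 6 and 1, 2 lower between days 9 and 6, 1 lower between days 9 and 1). A count of 0 allows 0.0889 to 0.210 CPM, depending on the library.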
